A study of Mus musculus with 18 samples.

Results

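The 8 genes described here encode amino acid carriers of lymphocytes: Slc7a5, Slc7a6, Slc3a2, Slc1a4, Slc1a5, Slc38a1, Slc38a2 and Slc7a1. They are a list of named genes, drawn up with earlier results of these data known, and each matched 1 row of a count table of 23337 genes. In 18 libraries of sorted thymic invariant natural killer T (iNKT) cells, 7 of the 8 were measured well enough to be tested, and Slc1a4 was close to 0 in every library. The largest carrier differences were between subsets: Slc7a5 was 2.02-fold to 2.85-fold lower in NKT17 cells than in NKT1 or NKT2 cells of both genotypes. In WT, Slc7a6 and Slc38a1 were lowest in NKT1 cells. In SKG cells the Slc7a6 libraries of NKT1 and NKT17 overlapped, and the Slc38a1 differences were under 1.5-fold. Each subset comparison called 1 to 3 of the 7 tested carriers, against 18.7% to 27.5% of all genes. In cells carrying the SKG mutation, 3 carriers in NKT2 and 3 in NKT17 cells passed the adjusted p threshold against wild type, all of them lower. Of all 11118 genes tested, 1270 and 1398 passed it in these comparisons. Among the carriers, Slc38a2 in NKT2 cells reached the 1.5-fold minimum, at 1.51-fold, in a comparison in which 7.95% of all genes were called. That call was lost in 6 of 15 alternative analyses.

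Lymphocytes import amino acids through several carrier families. Slc7a5 (LAT1) and Slc7a6 (y+LAT2) are light chains that reach the plasma membrane only when joined to the heavy chain Slc3a2 (CD98); the first exchanges large neutral amino acids such as leucine against intracellular glutamine, and the second exchanges cationic amino acids such as arginine against glutamine with sodium. Slc1a4 (ASCT1) and Slc1a5 (ASCT2) exchange small neutral amino acids with sodium, and Slc1a5 also carries glutamine. Slc38a1 (SNAT1) and Slc38a2 (SNAT2) take up small neutral amino acids and glutamine together with sodium, and Slc7a1 (CAT1) takes up arginine and lysine. Activated T cells raise several of these carriers, leucine reaches the mTORC1 kinase complex through sensors in the cytosol and at the lysosome, and ATF4 and MYC are transcription factors known to act on carrier genes.

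The libraries came from 3 iNKT subsets, NKT1, NKT2 and NKT17, of WT and SKG mice on the BALB/c background, with 3 libraries in each of the 6 groups. SKG mice carry a point mutation in an SH2 domain of ZAP70, the kinase that couples the T cell receptor to its signaling cascade, and a point mutation leaves no mark in gene counts. Both genotypes were the third generation of a cross of SKG with BALB/cJ mice, bred apart from the second generation on, and neither the age of the mice nor pooling of mice was given in the sources used here. Cells were sorted as CD1d tetramer-positive thymocytes, NKT1 as ICOS-low and CD49a-positive, NKT2 as ICOS-high, CD4-high and Sdc-1-negative, and NKT17 as ICOS-high and Sdc-1-positive. No mouse was treated. Because these are bulk libraries, fewer cells of a type that uses a gene and less RNA of that gene per cell cannot be told apart.

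The libraries held 4391029 to 8895917 counts. Levels are counts scaled to library size (CPM) after adjustment by trimmed mean of M values (TMM). A gene was called where the adjusted p of edgeR's quasi-likelihood test was under 0.1 and the difference was at least 1.5-fold. The NKT1 and NKT17 markers followed the labels. The NKT17 markers include Sdc1, and the NKT2 markers include Icos and Cd4, whose proteins were used in the sort. These genes are not independent of the labels. The 6 summed NKT1 markers stood at 4808 to 5607 CPM in WT NKT1, 3948 to 4390 CPM in SKG NKT1 and 161 to 424 CPM in the other libraries. They stood at 283 to 324 CPM in WT NKT17 and 161 to 221 CPM in SKG NKT17. The 6 summed NKT17 markers stood at 2163 to 2318 CPM in the NKT17 libraries and at 0.483 to 13.9 CPM in the others. The 6 summed NKT2 markers separated less, at 2284 to 2559 CPM in WT NKT2, 1517 to 1634 in WT NKT17, 1693 to 2137 in SKG NKT2 and 1686 to 1823 in SKG NKT17. The SKG NKT2 and SKG NKT17 sums thus overlapped. Against WT, 2 NKT2 markers were called lower in SKG NKT2, and 3 NKT17 markers lower and 1 higher in SKG NKT17. Of the markers of the other subsets, SKG NKT1 had 1 NKT2 marker higher, and SKG NKT2 had 2 NKT1 markers lower and 1 NKT17 marker higher. SKG NKT17 had 1 NKT1 marker higher and 1 lower, and 1 NKT2 marker higher and 1 lower. The shares of all genes called were 3.27%, 7.95% and 8.37% in NKT1, NKT2 and NKT17. The part of these marker differences in the carrier values was not tested. B cell markers summed to at most 2.66 CPM and red cell markers to at most 1.45 CPM in any library. The 6 summed myeloid markers stood at 272 to 526 CPM in WT NKT1, 172 to 212 CPM in SKG NKT1 and at most 14.9 CPM in the other libraries. Nearly all of the NKT1 sum was Fcer1g, a receptor signaling subunit that is also known from natural killer cells, which averaged 400 ± 126 CPM in WT NKT1 and 194 ± 21.1 CPM in SKG NKT1 (SD, n = 3). Its SKG difference in NKT1 was called, at -1.04 on the log2 scale (adjusted p = 0.0990), and both genotypes had it called higher in NKT1 against each other subset. Of the other myeloid markers, Csf1r, Itgam and Cd14 were at 0 in all NKT1 libraries, and Lyz2 and Adgre1 reached at most 7.62 and 2.29 CPM there. Double-positive thymocyte markers were at most 13.8 CPM outside the SKG NKT17 group and reached 14.3 to 47.5 CPM in it; their part in the SKG NKT17 results below was not tested.

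In the mouse build NCBIM37 with its GENCODE annotation, all 8 genes had a unique position, and no exon of any of them overlapped an exon of another gene. Slc7a5 lies at chr8:124405052-124431594 on the minus strand and Slc7a6 at chr8:108692775-108722604 on the plus strand. Slc3a2 lies at chr19:8781372-8797859 on the minus strand, 127 bases from Snhg1, which is read from the opposite strand. Slc1a4 lies at chr11:20202183-20232716 on the minus strand and Slc1a5 at chr7:17366695-17383623 on the plus strand. Slc38a1 at chr15:96401849-96473344 and Slc38a2 at chr15:96517825-96530129 lie near each other on the minus strand, and Slc7a1 lies at chr5:149138986-149211480 on the minus strand.

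RefSeq promoter windows of build GRCm38.p6, from 250 bases before to 50 bases after a start site, were at hand for Slc7a1, Slc7a6, Slc1a4, Slc38a2 and Slc3a2, in 7 windows. They were searched on both strands for 3 motifs of factors known to act on such genes. The 250 bases before the start of Slc7a6, at chr8:106168604-106168853 on the plus strand, and of Slc38a2, at chr15:96699729-96699978 on the minus strand, are shown. They are examples of genes with lower SKG values in the results below. Neither of these windows held a match. The Slc3a2 window, of a gene also lower in SKG NKT17, held none either and is not shown.
Slc7a6: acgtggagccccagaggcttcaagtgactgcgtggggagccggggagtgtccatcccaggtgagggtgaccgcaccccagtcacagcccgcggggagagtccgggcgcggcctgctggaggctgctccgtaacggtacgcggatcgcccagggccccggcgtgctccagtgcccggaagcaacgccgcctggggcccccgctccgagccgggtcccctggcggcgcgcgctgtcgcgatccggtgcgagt
Slc38a2: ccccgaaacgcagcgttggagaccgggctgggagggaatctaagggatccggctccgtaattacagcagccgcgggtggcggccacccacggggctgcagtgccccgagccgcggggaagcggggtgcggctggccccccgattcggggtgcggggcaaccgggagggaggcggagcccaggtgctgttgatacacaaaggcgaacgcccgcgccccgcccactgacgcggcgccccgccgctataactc

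Only 2 of the 7 windows held any of the 3 motifs, and a stretch around each match is shown with the matching letters in capitals. The Slc1a4 stretch, at chr11:20332699-20332728 on the minus strand, holds the core of the element bound by ATF4 with C/EBP factors (TGATGNAA, read here on the other strand), which 3.97% of the 32851 windows of this length hold. The Slc7a1 stretch, at chr5:148400009-148400038 on the minus strand, holds an AP-1 site (TGANTCA), which 7.81% of the windows hold. The E-box bound by MYC (CACGTG), held by 7.15% of the windows, was in none of the 7. A match is a run of letters, not a bound site, and a window without these letters says nothing of the factor elsewhere in the gene.
Slc1a4: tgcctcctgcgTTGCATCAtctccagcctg
Slc7a1: gccatcagctcTGACTCAagctcagttgcg

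Per length of exon, Slc3a2 and Slc1a5 were the most abundant of the 8 transcripts, at 90.5 and 86.6 reads scaled to exon length and library size (RPKM) over all libraries. Slc7a6 followed at 56.6 RPKM, then Slc38a2 at 28.6, Slc38a1 at 26.3 and Slc7a5 at 25.5 RPKM, and Slc7a1 was lower at 4.72 RPKM. Slc1a4 was at 0.104 RPKM. The least variable across libraries was the heavy chain Slc3a2, whose highest library was 1.63-fold its lowest, and the most variable of the 7 tested was Slc7a5, at 4.83-fold.

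**Figure D1:**
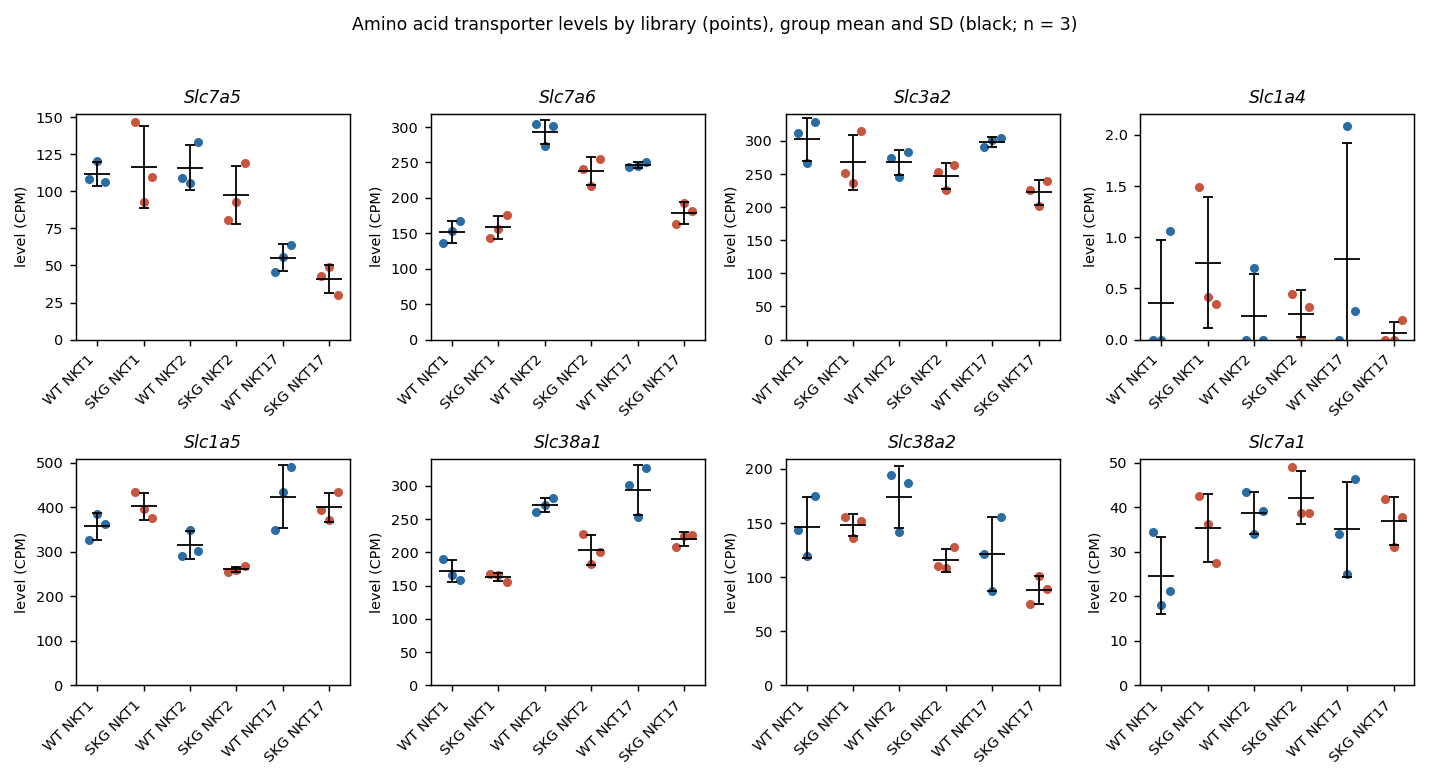
Level of each of the 8 carriers in CPM (vertical axes, from 0, on a scale of its own for each gene) in the 6 groups; points are libraries (blue WT, red SKG) and black bars the mean and SD of 3. Slc7a5 is low in all 6 NKT17 libraries (30.4 to 64.0 CPM), Slc7a6 and Slc38a1 are low in NKT1 libraries, and Slc1a4 stays at or under 2.09 CPM.

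Slc7a5, the leucine-importing light chain, differed by subset. It was at 108, 121 and 106 CPM in the 3 WT NKT1 libraries, 109, 106 and 133 CPM in WT NKT2 and 45.9, 56.0 and 64.0 CPM in WT NKT17. In SKG cells it was at 147, 92.9 and 109.7 CPM in NKT1, 80.4, 93.0 and 119 CPM in NKT2 and 43.1, 48.9 and 30.4 CPM in NKT17. All 6 NKT17 libraries lay below all 12 libraries of the other subsets. The log2 difference of NKT1 from NKT17 was 1.01 (SE 0.19, adjusted p = 0.000215) in WT and 1.51 (SE 0.19, adjusted p = 1.96e-06) in SKG, and that of NKT17 from NKT2 was -1.07 (SE 0.19, adjusted p = 0.000168) in WT and -1.26 (SE 0.19, adjusted p = 3.13e-05) in SKG. These 4 calls held in each of 15 alternative analyses, described in the closing section. NKT1 and NKT2 cells overlapped in both genotypes. SKG minus WT in NKT17 was -0.44 (SE 0.19, adjusted p = 0.181) with a 95% interval of -0.84 to -0.04, and it was not called.

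Slc7a6, the light chain that exchanges cationic amino acids, had another order of groups. It was at 136, 154 and 167 CPM in WT NKT1, 305, 273 and 301 CPM in WT NKT2 and 243, 245 and 250.5 CPM in WT NKT17. The SKG libraries were at 143, 156 and 176 CPM in NKT1, 241, 217 and 255 CPM in NKT2 and 162, 193 and 182 CPM in NKT17. In WT the 3 subsets did not overlap, and NKT2 was highest. The log2 difference of NKT1 from NKT2 was -0.95 (SE 0.11, adjusted p = 3.95e-07) and that of NKT1 from NKT17 was -0.69 (SE 0.11, adjusted p = 2.35e-05), and both calls held in 15 of 15 alternatives. In SKG cells NKT1 differed from NKT2 by -0.59 (SE 0.11, adjusted p = 0.000287), close to the 1.5-fold minimum. It was under that minimum, at -0.52, -0.58, -0.57 and -0.52, without SKG NKT1 replicate 1, SKG NKT1 replicate 2, SKG NKT2 replicate 1 or SKG NKT2 replicate 3. NKT1 differed from NKT17 by -0.18 (SE 0.11, adjusted p = 0.252).

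The SKG and WT libraries of Slc7a6 did not overlap in NKT2 or in NKT17, with SKG lower in both, and they overlapped in NKT1. SKG minus WT was -0.30 (SE 0.11, adjusted p = 0.0907) in NKT2 and -0.46 (SE 0.11, adjusted p = 0.00775) in NKT17. Both passed the p threshold but were under 1.5-fold, so neither was called. In NKT1 the difference was 0.06 (SE 0.11, adjusted p = 0.902).

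Slc3a2, the heavy chain both light chains share, varied little between subsets. It was at 312, 266 and 329 CPM in WT NKT1, 274, 246 and 283 CPM in WT NKT2 and 290.3, 301 and 305 CPM in WT NKT17. SKG values were 252, 237 and 315 CPM in NKT1, 253, 226 and 263 CPM in NKT2 and 226, 202 and 239 CPM in NKT17. Between genotypes only the NKT17 groups were apart, with all SKG libraries below all WT libraries, and between subsets only WT NKT17 and WT NKT2 were apart, with NKT17 higher. The genotype difference in NKT17 was -0.43 (SE 0.11, adjusted p = 0.0203), under 1.5-fold and so not called. No subset comparison of Slc3a2 was called in either genotype; in WT the 95% interval of the log2 difference of NKT1 from NKT17 was -0.22 to 0.25.

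The balance of the light chain transcripts, taken in each library, differed between the libraries of different subsets. The ratio of Slc7a6 to Slc7a5, both per exon length, was 1.29 ± 0.166 in WT NKT1, 2.40 ± 0.251 in WT NKT2 and 4.27 ± 0.663 in WT NKT17 (SD, n = 3). In SKG cells it stood at 1.34 ± 0.361 in NKT1, 2.35 ± 0.424 in NKT2 and 4.31 ± 1.16 in NKT17. The 3 subsets did not overlap in either genotype, and SKG and WT overlapped in every subset. With 3 libraries against 3, an exact two-sided permutation test cannot go below p = 0.1, so the ratio is given as a description. A ratio shows unequal levels of the transcripts and not which protein pairs form.

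**Figure D2:**
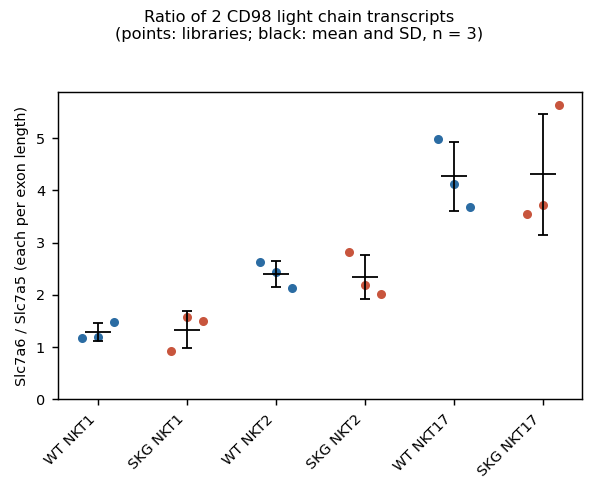
Ratio of Slc7a6 to Slc7a5, each scaled by its exon length (vertical axis, no unit), in the 6 groups; points are libraries and black bars the mean and SD of 3. The NKT1 libraries sit between 0.921 and 1.58, the NKT2 libraries between 2.02 and 2.83 and the NKT17 libraries between 3.56 and 5.64, in both genotypes.

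Slc1a5, the glutamine and small neutral amino acid exchanger, had the most counts of the 8 genes. It was at 326, 386 and 362 CPM in WT NKT1, 291, 350.2 and 302 CPM in WT NKT2 and 349, 434 and 491 CPM in WT NKT17. In SKG it was at 434, 396 and 376 CPM in NKT1, 255, 259 and 267 CPM in NKT2 and 395, 371 and 434 CPM in NKT17. The NKT2 group of SKG mice was the lowest of all 6 groups and overlapped none of them. Within SKG, NKT1 exceeded NKT2 by 0.63 (SE 0.12, adjusted p = 0.000304) and NKT17 exceeded NKT2 by 0.62 (SE 0.12, adjusted p = 0.000323) on the log2 scale. The first was under 1.5-fold without SKG NKT1 replicate 1 (0.56) and under upper-quartile scaling (0.57), and the second without SKG NKT17 replicate 3 (0.56). In WT, NKT17 minus NKT2 was 0.43 (SE 0.12, adjusted p = 0.00780), under 1.5-fold.

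SKG minus WT for Slc1a5 was 0.17 (SE 0.12, adjusted p = 0.577) in NKT1, -0.27 (SE 0.12, adjusted p = 0.173) in NKT2 and -0.09 (SE 0.12, adjusted p = 0.743) in NKT17, and none was called. The 95% interval in NKT2 was -0.51 to -0.03.

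Slc1a4, the related exchanger of alanine, serine and cysteine, had 41 counts in all 18 libraries together, with 0 in 8 of them and at most 12 in any. By group it had 6 counts in WT NKT1, 12 in SKG NKT1, 4 in WT NKT2, 4 in SKG NKT2, 14 in WT NKT17 and 1 in SKG NKT17. A count of 0 in a library allows a level of up to 0.362 to 0.661 CPM (3 counts, counting error only). It did not pass the filter on low counts and was not tested, and no difference was detectable at this depth.

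Slc38a1, a sodium-coupled carrier of glutamine and alanine, was lowest in NKT1 cells. It was at 191, 165 and 159 CPM in WT NKT1, 261, 272 and 282 CPM in WT NKT2 and 302, 254 and 327 CPM in WT NKT17. In SKG it was at 168, 165 and 156 CPM in NKT1, 228, 183 and 201 CPM in NKT2 and 208, 224 and 227 CPM in NKT17. The WT NKT1 libraries lay below all WT NKT2 and NKT17 libraries. The log2 difference of NKT1 from NKT2 was -0.66 (SE 0.11, adjusted p = 5.91e-05) and that of NKT1 from NKT17 was -0.78 (SE 0.11, adjusted p = 6.94e-06), and both calls held in 15 of 15 alternatives. The same differences in SKG, -0.32 (SE 0.11, adjusted p = 0.0395) and -0.43 (SE 0.11, adjusted p = 0.00468), were under 1.5-fold.

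Between genotypes, Slc38a1 libraries did not overlap in NKT2 or in NKT17, with SKG lower. SKG minus WT was -0.41 (SE 0.11, adjusted p = 0.0194) in NKT2 and -0.42 (SE 0.11, adjusted p = 0.0163) in NKT17, in each case under 1.5-fold and not called. In NKT1 it was -0.08 (SE 0.11, adjusted p = 0.849).

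Slc38a2, the carrier known to be induced when cells lack amino acids, was the member called between genotypes. It was at 194, 141 and 187 CPM in WT NKT2 and at 110.3, 108 and 128 CPM in SKG NKT2. All 3 SKG libraries lay below all 3 WT libraries, and the fall was 1.51-fold, -0.59 (SE 0.18, adjusted p = 0.0451) on the log2 scale with a 95% interval of -0.96 to -0.22. The call held in 9 of 15 alternatives, with adjusted p from 0.00906 to 0.157. It was lost without WT NKT2 replicate 1 (-0.51), WT NKT2 replicate 3 (-0.54), SKG NKT2 replicate 1 (-0.56) or SKG NKT2 replicate 2 (-0.54). It also fell under 1.5-fold when only the libraries compared were fitted (-0.57, adjusted p = 0.00906) and with the replicate block (-0.58, adjusted p = 0.0300). Between libraries that share a token in their titles, the SKG library was lower in both cases, at log2 differences of -0.36 and -0.79.

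In the other subsets Slc38a2 was at 144, 119 and 175 CPM in WT NKT1, 156, 137 and 152 CPM in SKG NKT1, 121, 86.8 and 156 CPM in WT NKT17 and 75.4, 101 and 88.8 CPM in SKG NKT17. The genotypes overlapped in both subsets. SKG minus WT was 0.02 (SE 0.18, adjusted p = 0.990) in NKT1 and -0.46 (SE 0.18, adjusted p = 0.128) in NKT17. Within SKG mice NKT1 exceeded NKT17 by 0.75 (SE 0.18, adjusted p = 0.00326), a call that held in 15 of 15 alternatives. In WT the same difference was 0.27 (SE 0.18, adjusted p = 0.307). NKT17 minus NKT2 in WT was -0.52 (SE 0.18, adjusted p = 0.0394), under 1.5-fold, and it was called without WT NKT2 replicate 2 (-0.66) or WT NKT17 replicate 3 (-0.75). In NKT17 the SKG difference was called without WT NKT17 replicate 2 (-0.66, adjusted p = 0.0173).

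Slc7a1, the arginine and lysine carrier, was the lowest of the 7 tested. It was at 34.5, 18.1 and 21.3 CPM in WT NKT1, 43.3, 33.9 and 39.1 CPM in WT NKT2 and 34.0, 25.0 and 46.3 CPM in WT NKT17, and at 42.5, 36.2 and 27.4 CPM in SKG NKT1, 49.1, 38.8 and 38.7 CPM in SKG NKT2 and 41.9, 31.1 and 37.7 CPM in SKG NKT17. Every pair of neighbors in the order of group means overlapped. WT NKT1 was called lower than WT NKT2, by -0.64 (SE 0.25, adjusted p = 0.0497), although 1 WT NKT1 library exceeded 1 WT NKT2 library. The call was lost without WT NKT2 replicate 1 (-0.58), WT NKT1 replicate 2 (-0.47) or WT NKT1 replicate 3 (-0.56). Against NKT17, WT NKT1 differed by -0.50 (SE 0.25, adjusted p = 0.144), which was called without WT NKT1 replicate 1 (-0.84) or WT NKT17 replicate 2 (-0.72). SKG minus WT in NKT1 was 0.51 (SE 0.25, adjusted p = 0.362), which was called without WT NKT1 replicate 1, at 0.85 (adjusted p = 0.0824).

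Taking the 7 tested carriers side by side, SKG and WT differed least in NKT1. No carrier was called there by edgeR, none had an unadjusted p under 0.05 and none had groups that did not overlap, against 3.27% of all 11118 genes tested called and 16.3% not overlapping; their median log2 difference was 0.06 against -0.01 over all genes. In NKT2, 1 of 7 was called, Slc38a2, against 7.95% of all genes, 4 did not overlap against 30.1%, and the median was -0.27 against 0.00. In NKT17, 0 of 7 were called against 8.37% of all genes, 3 did not overlap against 26.9%, and the median was -0.43 against 0.00. There 5 of the 7 had an unadjusted p under 0.05, a count for which no share over all genes was computed. The adjusted p threshold alone was passed by 3 carriers in NKT2 and 3 in NKT17, beside 1270 and 1398 of all 11118 genes. In both NKT2 and NKT17, 6 of the 7 fitted values were below 0 and Slc7a1 was above it. DESeq2 in place of edgeR called 0, 1 and 0 carriers in NKT1, NKT2 and NKT17, beside 475, 991 and 1010 of all genes.

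**Figure D3:**
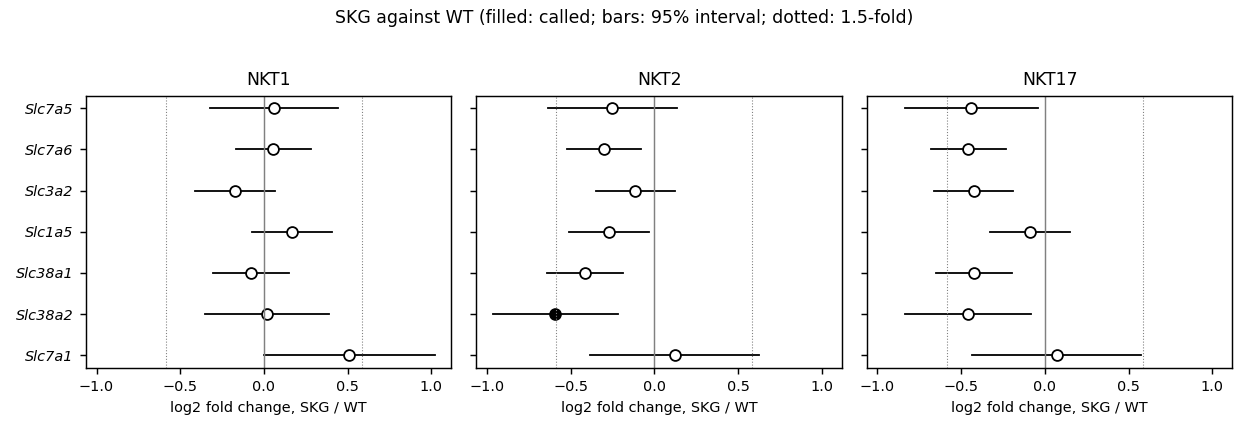
Log2 fold change of SKG over WT (horizontal axes) for the 7 tested carriers in NKT1, NKT2 and NKT17; circles are fitted values, bars their 95% intervals, filled circles called values, and dotted lines a 1.5-fold difference. Slc38a2 in NKT2 is the only filled circle, and 6 of 7 circles lie below 0 in NKT2 and in NKT17.

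Summed proliferation genes were also lower in SKG than in WT in NKT2 and NKT17. The 8 summed proliferation genes, such as Mki67 and Top2a, stood at 504 to 627 CPM in WT NKT2 and 289 to 380 CPM in SKG NKT2, at 215 to 356 CPM in WT NKT17 and 112 to 162 CPM in SKG NKT17, and at 194 to 285 and 189 to 270 CPM in WT and SKG NKT1. Of these 8, 6 were called lower in SKG NKT17, 1 in SKG NKT2 and 0 in SKG NKT1, beside 8.37%, 7.95% and 3.27% of all genes. All 8 were called higher in WT NKT2 than in WT NKT1, beside 27.5% of all genes. None of the 8 was at 0 in any group. Their part in the carrier values was not tested.

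Whether the SKG difference itself depended on the subset was tested with interaction terms. No carrier was called, against 3.87% of all genes for NKT2 minus NKT1, 4.17% for NKT17 minus NKT1 and 2.19% for NKT17 minus NKT2. The numbers of carriers with an unadjusted p under 0.05 were 4, 2 and 0, with no share over all genes computed. DESeq2 called 0 carriers in each, beside 579, 641 and 350 of all genes. Slc7a6 came nearest, with -0.51 (SE 0.15, adjusted p = 0.0750) for NKT17 minus NKT1, which passed the p threshold at under 1.5-fold. It was called without SKG NKT1 replicate 1 (-0.61), SKG NKT17 replicate 2 (-0.60) or WT NKT1 replicate 3 (-0.59). For Slc38a2 the term for NKT2 minus NKT1 was -0.61 (SE 0.25, adjusted p = 0.257), so its call in NKT2 was not shown to differ from NKT1.

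Between subsets of WT mice, 3 carriers were called between NKT1 and NKT2, all lower in NKT1 (Slc7a6, Slc38a1 and Slc7a1), against 27.5% of all genes called. Between NKT1 and NKT17, 3 were called against 24.7%, with Slc7a5 higher and Slc7a6 and Slc38a1 lower in NKT1. Between NKT17 and NKT2, Slc7a5 alone was called, against 20.0%. The groups did not overlap for 2, 3 and 3 carriers, against 41.6%, 34.1% and 37.2% of all genes. The 3 comparisons share their libraries in pairs.

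In SKG mice the called carriers between NKT1 and NKT2 were Slc7a6, lower in NKT1, and Slc1a5, higher, 2 of 7 against 18.7% of all genes. Between NKT1 and NKT17, Slc7a5 and Slc38a2 were higher in NKT1, 2 of 7 against 22.8%. Between NKT17 and NKT2, Slc7a5 was lower and Slc1a5 higher in NKT17, 2 of 7 against 18.8%. The groups did not overlap for 4, 3 and 4 carriers, against 38.9%, 42.6% and 40.3% of all genes. Each of the 6 subset comparisons thus called 1 to 3 of the 7 genes.

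**Figure D4:**
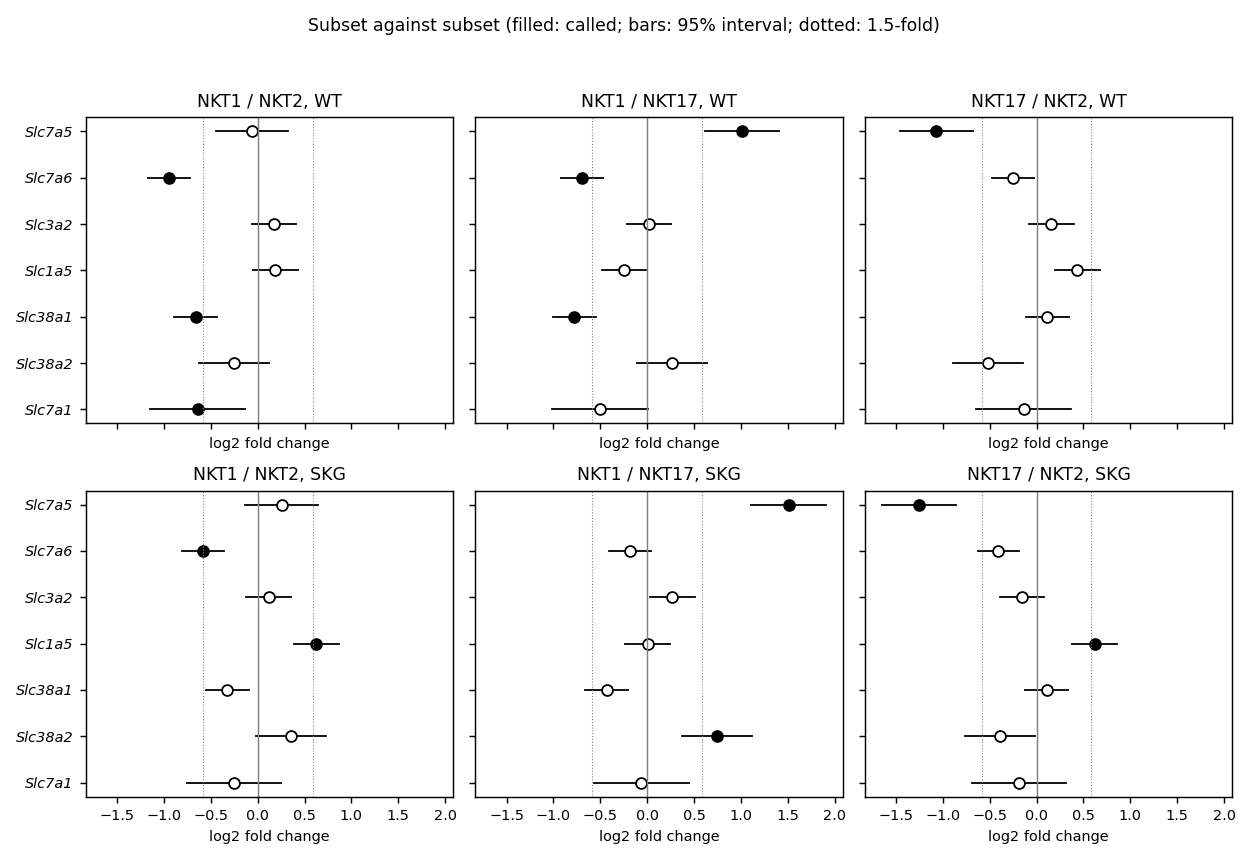
Log2 fold change between pairs of subsets (horizontal axes; the first named over the second) for the 7 tested carriers in WT (top) and SKG (bottom); circles are fitted values, bars their 95% intervals, filled circles called values, and dotted lines a 1.5-fold difference. Slc7a5 is filled in both comparisons with NKT17 in each genotype, at log2 values from -1.26 to 1.51.

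Among 33 other plasma membrane amino acid carriers, 7 passed the filter on low counts. Slc16a10, a carrier of aromatic amino acids, fell in SKG NKT17, from 43.6 ± 13.8 to 12.9 ± 0.390 CPM, by 1.75 on the log2 scale (adjusted p = 1.68e-05). Its highest level was in NKT1, at 95.9 ± 23.1 CPM in WT and 134 ± 13.8 CPM in SKG. Its SKG difference was larger in NKT17 than in NKT1 by -2.23 (adjusted p = 0.000107) and than in NKT2 by -1.46 (adjusted p = 0.0146), which are interaction terms. Slc43a2, a sodium-independent carrier of branched-chain amino acids, was at 60.1 ± 2.01 CPM in WT NKT2 and 34.3 ± 5.18 CPM in SKG NKT2, a log2 difference of -0.81 (adjusted p = 0.00511). In WT it was lower in NKT1 than in the other subsets, at log2 differences of -1.47 from NKT2 and -1.96 from NKT17. In all, 0 of the 7 were called in SKG NKT1, 2 lower in SKG NKT2 and 2 lower in SKG NKT17. The shares of all genes called were 3.27%, 7.95% and 8.37%. The second gene in SKG NKT2 and in SKG NKT17 was Slc1a6, a glutamate carrier. It averaged 6.83 CPM in WT NKT2 and under 1 CPM in every other group. Its NKT17 call (adjusted p = 0.0375) rests on 0.137 to 2.15 CPM in WT against 0 in SKG, and it was lost with the replicate block and without WT NKT17 replicate 1, SKG NKT17 replicate 1 or SKG NKT17 replicate 3, with adjusted p up to 0.217. Their median log2 SKG differences were 0.18, -0.29 and -0.12. Among 15 lysosomal and mitochondrial carriers, 14 were tested and edgeR called 0 between genotypes in any subset. An unadjusted p under 0.05 was found for 1, 2 and 4 in NKT1, NKT2 and NKT17, with no share over all genes computed. DESeq2 called 0, 0 and 1 of them, beside 475, 991 and 1010 of all genes.

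Of 38 genes of the mTORC1 complex and its amino acid sensors, all were tested and 2 were called between genotypes, both higher in SKG NKT17, where 8.37% of all genes were called. Lamtor2, a subunit of the lysosomal Ragulator scaffold, was at 96.9 ± 8.58 CPM in WT and 152 ± 7.68 CPM in SKG NKT17, a log2 difference of 0.65 (adjusted p = 0.000242). Castor1, a cytosolic arginine sensor, differed by 0.60 (adjusted p = 0.0939), a call that held in 6 of 15 alternatives and was lost without any 1 of the 6 libraries (0.53 to 0.67). Mtor, the kinase, was not called between genotypes, with log2 differences of 0.01, -0.04 and 0.22 in NKT1, NKT2 and NKT17. Between WT subsets, Rptor, the Raptor subunit, was higher in NKT1 than in NKT2 by 1.45 (adjusted p = 8.81e-05) and than in NKT17 by 1.63 (adjusted p = 1.99e-05). Rragd, a Rag GTPase that binds mTORC1, had the largest called differences of the list in these 2 comparisons, at 3.02 and 3.60, from a low level of 12.1 ± 2.13 CPM in WT NKT1. Sesn1, a leucine sensor of the Sestrin family, was at 288 ± 7.35 CPM in WT NKT17, 183 ± 59.5 CPM in WT NKT1 and 114 ± 20.5 CPM in WT NKT2. Castor1 was called lower in WT NKT1 in both comparisons, with a log2 difference of -1.32 from NKT2 (adjusted p = 8.59e-05). In all, the calls between WT subsets were 8 of 38 for NKT1 against NKT2 (4 higher and 4 lower in NKT1). They were 9 for NKT1 against NKT17 (3 higher and 6 lower in NKT1). For NKT17 against NKT2 they were 5 (4 higher and 1 lower in NKT17). The shares of all genes called in these comparisons were 27.5%, 24.7% and 20.0%.

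Of 25 genes of the GCN2 and ATF4 response to amino acid shortage, 19 were tested. In SKG NKT2, 4 were lower and 0 higher, in SKG NKT17, 2 were lower and 0 higher, and in SKG NKT1, 0 were called, beside 7.95%, 8.37% and 3.27% of all genes in NKT2, NKT17 and NKT1. Phgdh, the first enzyme of serine synthesis, fell from 949 ± 42.2 to 466 ± 29.3 CPM in NKT2, by 1.03 on the log2 scale (adjusted p = 2.93e-06), and from 323 ± 48.4 to 153 ± 17.0 CPM in NKT17, by 1.08 (adjusted p = 2.19e-06). Psat1, the next enzyme of that pathway, fell by 0.88 in NKT17 (adjusted p = 0.00208). Asns, asparagine synthetase, fell in NKT2 by 1.66 (adjusted p = 0.0313), a call lost without WT NKT2 replicate 1 (-1.43), SKG NKT2 replicate 1 (-1.63) or SKG NKT2 replicate 3 (-1.45). In NKT17 it differed by -1.21 (adjusted p = 0.110), which was called by DESeq2 (-1.23), with only the compared libraries (-1.21) and without SKG NKT17 replicate 1 (-1.64). The others lower in NKT2 were Psat1, named there after its values were seen, and Stc2, a secreted glycoprotein, which fell by 1.08 (adjusted p = 0.000854). Atf4 itself and Eif2ak4, which encodes GCN2, were not called in any of the 3 genotype comparisons, with Atf4 at log2 differences of -0.11, -0.22 and -0.04.

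None of the 20 cytosolic aminoacyl-tRNA synthetases, which load amino acids onto tRNA, was called between genotypes by edgeR. An unadjusted p under 0.05 was found for 0, 3 and 4 in NKT1, NKT2 and NKT17, with no share over all genes computed. DESeq2 called 0 synthetases in each subset, beside 475, 991 and 1010 of all genes in NKT1, NKT2 and NKT17. Between subsets the called synthetase was Vars, the valine enzyme, higher in NKT1 than in NKT2 by 0.66 in WT and 0.75 in SKG. In these comparisons 27.5% and 18.7% of all genes were called. In WT the Vars difference was under 1.5-fold without WT NKT2 replicate 1 (0.58) or WT NKT1 replicate 3 (0.57) and under upper-quartile scaling (0.55). Of 24 genes of amino acid metabolism, 19 were tested, and 1 was higher and 1 lower in SKG NKT1, 1 lower in SKG NKT2 and 2 lower in SKG NKT17. These counts stand beside 3.27%, 7.95% and 8.37% of all genes called in NKT1, NKT2 and NKT17. The gene lower in SKG NKT1 was Gpt2, an alanine aminotransferase, at 0.241 to 4.20 CPM in WT and 0 in SKG, a call lost without WT NKT1 replicate 2 or any 1 of the 3 SKG libraries. Got1, an aspartate aminotransferase, was lower in SKG NKT17, at -0.61 (adjusted p = 0.00419), a call lost without SKG NKT17 replicate 3. Shmt1, an enzyme of serine and glycine interconversion, fell by 0.91 in SKG NKT2 (adjusted p = 0.00603) and by 1.26 in SKG NKT17 (adjusted p = 0.000545). Its interaction terms against NKT1 were -1.21 (adjusted p = 0.0306) for NKT2, at -0.96 and not called without SKG NKT1 replicate 2, and -1.56 (adjusted p = 0.00636) for NKT17. Odc1, ornithine decarboxylase of polyamine synthesis, was not called, and Srm, spermidine synthase, rose in SKG NKT1 by 0.64 (adjusted p = 0.00213), a call under 1.5-fold without WT NKT1 replicate 3 (0.56).

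Myc, a transcription factor known to act on Slc7a5, was lowest in NKT17, as Slc7a5 was. Myc stood at 251 ± 17.5 CPM in WT NKT1, 202 ± 37.7 in WT NKT2 and 83.9 ± 13.5 in WT NKT17, and at 372 ± 36.5, 196 ± 11.3 and 81.5 ± 10.5 CPM in the same subsets of SKG mice. In WT, NKT1 exceeded NKT17 by 1.58 (adjusted p = 5.00e-09) and NKT17 was below NKT2, at -1.27 (adjusted p = 2.71e-07). SKG minus WT for Myc was 0.57 in NKT1 (adjusted p = 0.0200, under 1.5-fold, and called without WT NKT1 replicate 1 at 0.62 or SKG NKT1 replicate 3 at 0.64, under upper-quartile scaling and with only the compared libraries, both at 0.59), -0.05 in NKT2 and -0.04 in NKT17. Over the 18 libraries Slc7a5 and Myc had r = 0.845 (Spearman rho 0.664), and the deviations from their group means had r = -0.144. The other carriers had r with Myc of 0.532 (Slc38a2), 0.183 (Slc3a2), -0.144 (Slc7a1), -0.25 (Slc1a5), -0.341 (Slc7a6) and -0.669 (Slc38a1). Within groups Slc38a2 was at -0.658 and Slc7a6 at -0.52, and Slc1a5 was highest, at 0.292. With Atf4, r over all libraries ran from -0.477 (Slc7a6) to 0.561 (Slc38a2), with Slc7a5 at 0.393. All are descriptions with no test, over libraries that share subsets and scaling. The interaction term for NKT2 minus NKT1 was called for Myc, at -0.61 (adjusted p = 0.0964), and held in 11 of 21 alternatives, and that for NKT17 minus NKT1 was -0.61, just over the p threshold and not called, with calls in 9 of 21. The first was lost without WT NKT1 replicate 2 or 3, WT NKT2 replicate 2 or 3, SKG NKT1 replicate 1 or 2, or any 1 of the SKG NKT2 libraries, at -0.46 to -0.69. Mycn, its relative, averaged 99.3 and 82.7 CPM in WT and SKG NKT17 and at most 0.180 CPM in the other groups. Of 11 genes of the MYC network 10 were tested. The called gene in each genotype comparison was Mxd1, a repressor that pairs with MAX, beside 3.27%, 7.95% and 8.37% of all genes in NKT1, NKT2 and NKT17. Mxd1 was lower in SKG at log2 differences of -1.53 in NKT1, -1.53 in NKT2 and -1.47 in NKT17. The Mxd1 calls held in 12, 13 and 12 of 15 alternatives. They were lost in NKT1 without WT NKT1 replicate 1 (-1.42), SKG NKT1 replicate 1 (-1.48) or SKG NKT1 replicate 3 (-1.36), and in NKT2 without SKG NKT2 replicate 1 (-1.32) or WT NKT2 replicate 3 (-1.38). In NKT17, where WT libraries ran from 16.7 to 77.5 CPM, the call was lost without WT NKT17 replicate 1 (-0.92) or SKG NKT17 replicate 3 (-1.38) and with only the compared libraries.

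**Figure D5:**
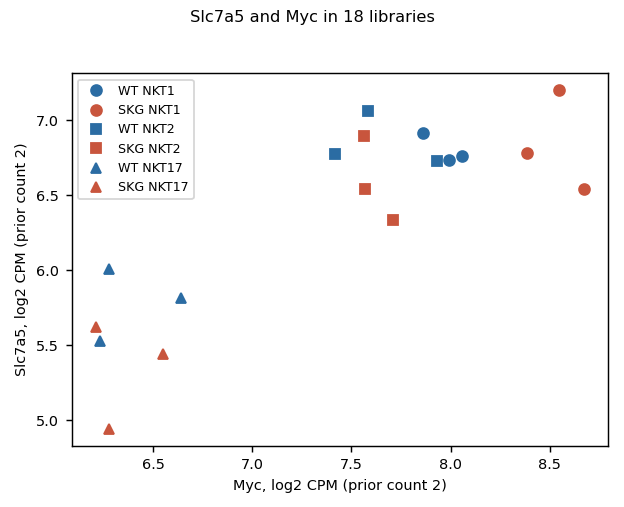
Slc7a5 (vertical axis) against Myc (horizontal axis), both as log2 CPM with a prior count of 2, in 18 libraries; color gives the genotype and marker shape the subset. The 6 NKT17 libraries lie apart at low values of both genes (r = 0.845 over all libraries and -0.144 after group means were removed).

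Over the 18 libraries, some pairs of carriers were more alike across subsets and others within groups. Slc7a6 and Slc38a1, both low in NKT1, had r = 0.771 over all libraries and r = -0.0886 after group means were removed. Slc7a5 and Slc38a2 had r = 0.738 over all libraries and 0.266 within groups, and Slc7a5 and Slc3a2, light and heavy chain of 1 complex, had 0.307 and -0.0712. Slc38a1 and Slc7a1 had the highest within-group value, 0.710, with 0.424 over all, and within-group values were also above the overall ones for Slc7a6 with Slc3a2 (0.448 and 0.0655), Slc38a1 with Slc38a2 (0.421 and 0.000418) and Slc38a2 with Slc7a1 (0.404 and 0.0319). These are descriptions over libraries that share subsets and scaling. By the same measure over 8620 genes, the genes most like each carrier were Wdr43 for Slc7a5 (r = 0.954), Twsg1 for Slc7a6 (r = 0.949), Ttc1 for Slc3a2 (r = 0.806), Cd226 for Slc1a5 (r = 0.887), 5430417L22Rik for Slc38a1 (r = 0.940), Serbp1 for Slc38a2 (r = 0.837) and Galc for Slc7a1 (r = 0.849).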

How the data were processed

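Sorted thymic iNKT cells were lysed and poly-A RNA was turned into full-length cDNA (adapted Smart-seq2, Nextera XT), sequenced as single-end reads. The counts are whole reads per gene, as the authors deposited them: per the paper's methods, adapter, spike-in and structural RNA sequence was taken out, the remaining reads aligned with TopHat to mm9, and htseq-count run in union mode. The submitters' processing notes instead list Bowtie 1.0.0, TopHat 1.4.1, HTSeq 0.7.1 and the builds hg19 and mm10; strand setting and annotation were not given in the sources used here. The members and lists were chosen with earlier results of these data known.

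Of 23337 genes, 15582 had a count and 11118 passed edgeR's filterByExpr. edgeR 4.0.16 in R 4.3.3 (TMM factors 0.928 to 1.07, robust quasi-likelihood fit of all 6 groups, Benjamini-Hochberg over 11118 genes, two-sided) called genes at adjusted p under 0.1 and at least 1.5-fold, the study's thresholds. Depth was 4391029 to 8895917 counts a library; intervals cover the spread between these libraries, which may be technical in part. RPKM used GENCODE exon unions on NCBIM37. Alternatives were DESeq2 1.42.0, other scalings, filters, thresholds, fits of the compared libraries, a block and leaving out each library. Scripts were tested on simulated data. All members were named; other listed genes could be named if among the largest called differences (up to 3 in each direction and comparison), with Myc, Atf4, Mtor, Eif2ak4, Asns and Odc1, and the gene most like each member came from its correlation over libraries. Titles share a token between libraries whose meaning is not stated. Deviations from group means correlated above 0.1 in all 3 same-token pairs only for NKT17 against NKT2 in WT (0.219 to 0.351). In the SKG subset comparisons, same-token pairs were at 0.0514 to 0.214, above all other pairs (at most 0.0464). The main fit left the token out, and the block was an alternative. The table held 2 columns of no listed sample, which were not used. A chi-square comparison of counts within groups gave 5.66 to 25.6 per degree of freedom, so no library was a copy of another.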

Additional observations from a re-analysis of the deposited data

Results flagged for a closer look

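Slc7a6 was singled out because an interaction term, which tests whether the SKG difference depended on the subset, passed the adjusted p threshold. The term did not reach the fold minimum, so it was not called, and a dependence on the subset was not shown. No carrier was called for any interaction term, and the shares of all genes called are given with those terms above. SKG minus WT was -0.46 in NKT17 and 0.06 in NKT1 on the log2 scale, and the interaction term, NKT17 minus NKT1, was -0.51 (SE 0.15, adjusted p = 0.0750, edgeR's quasi-likelihood test with Benjamini-Hochberg adjustment). It was under the 1.5-fold minimum, and above it without SKG NKT1 replicate 1 (-0.61), SKG NKT17 replicate 2 (-0.60) or WT NKT1 replicate 3 (-0.59). All 3 SKG NKT17 libraries (162 to 193 CPM) lay below all 3 WT NKT17 libraries (243 to 250.5 CPM), while the NKT1 libraries of the genotypes overlapped. The part of the lower proliferation genes in SKG NKT17 in this value was not tested.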

How the results depend on the processing

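No carrier result called in the main or any alternative analysis changed direction; 43 values that were called in neither changed sign. Of 1386 alternative values of 84 carrier differences, 1348 stayed on the same side of the thresholds, 16 lost and 22 gained a call. Called carriers moved by over 1.5 times as follows. Without a fold minimum the counts were 3 for SKG against WT in NKT2, 3 in NKT17, 4 for NKT17 against NKT2 in WT, 4 for NKT1 against NKT17 in SKG and 1 for the SKG difference of NKT17 minus NKT1. For SKG against WT in NKT2 the count was 0 with only the compared libraries and 0 with the replicate block, and for NKT1 against NKT2 in SKG it was 1 under upper-quartile scaling. These stand beside 1109, 1044 and 2102 of all genes. Leaving out each library in turn gave 0 to 1 calls for SKG against WT in each subset, 2 to 3, 3 to 4 and 1 to 2 in WT for NKT1 against NKT2, NKT1 against NKT17 and NKT17 against NKT2, 0 to 2, 2 to 2 and 1 to 2 in SKG, and 0 to 0, 0 to 1 and 0 to 0 for the interactions of NKT2 with NKT1, NKT17 with NKT1 and NKT17 with NKT2. No share over all genes was computed for the fits with a library left out. The causes were not tested.

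The block used the title token, and it changed the Slc38a2 call in NKT2. Upper-quartile scaling shifted the median of all genes by -0.10 for NKT1 against NKT2 in WT. Slc38a2 was called in SKG NKT17 without WT NKT17 replicate 2. The same alternatives were applied to the other lists after the data were seen. Depth limits Slc1a4, and 3 libraries a group limit small differences.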
